A study of Homo sapiens with 6 samples.

Results

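The genes described here encode proteins of the small nuclear ribonucleoproteins (snRNPs) and their close partners: the Sm and LSm proteins, the snRNP-specific proteins, the SF3A and SF3B complexes, PRPF factors, both U2AF subunits and 3 GEMIN proteins. They were 44 genes chosen by symbol, with earlier results of these data known. They came out of 18244 genes with a probe set of their own on the array. All 44 had such a probe set, and all 44 passed the filter on dim genes that left 12198 genes for testing. Where a gene had several probe sets, the one with the highest mean over the 6 arrays stood for it.

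P493-6 cells, of a human line labelled as B-cell lymphoma, carry a c-Myc transgene that tetracycline represses, and were grown with serum. Their total RNA was hybridised to 1-colour Affymetrix arrays, with 2 biological duplicates in each of 3 groups. Low-Myc cells were taken 0 h after release of the transgene, mid-Myc cells at 1 h and high-Myc cells at 24 h. For the mid-Myc cells a second field of the labels gives 0 h, and 1 h was taken since these cells are described as intermediate in c-Myc. The mid-Myc arrays are numbered apart from the rest, so a separate preparation and an effect at 1 h cannot be told apart. All samples are from the one cell line, and in these bulk samples a change in RNA per cell and a change in the make-up of the culture cannot be told apart.

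Each spliceosomal snRNP is built around a small nuclear RNA. For U1, U2, U4 and U5 a ring of Sm proteins closes on that RNA in the cytoplasm, helped by the SMN complex, to which the GEMIN proteins belong. U6 instead carries a ring of LSm proteins, and a related LSm ring in the cytoplasm takes part in messenger RNA decay. U2AF and the U2 snRNP with SF3A and SF3B recognise the 3′ end of the intron and the branch point, and the U4/U6.U5 tri-snRNP with its PRPF proteins then joins to form the catalytic spliceosome. Myc proteins bind DNA at E-box sequences and are widely studied as activators of growth and RNA processing genes.

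Synthetic ERCC RNAs had been added in proportion to cell number, and 2 scales were therefore used. On the equal-median scale the median human probe set of every array is set to the same level, so a value shows a gene relative to that median. As deposited, the median lay at 44.5 to 50.2 intensity. That is a dim level, below 194, the second brightest of 23 background probe sets, so the scale rests on dim probe sets. On the per-cell scale a curve through the ERCC probe sets is subtracted, so a value shows the signal per cell. As deposited, the 26 ERCC probe sets of middle intensity had medians of 539 and 517 at low-Myc, 390 and 394 at mid-Myc and 209 and 208 at high-Myc. Per-cell differences of the 44 genes were for that reason larger than equal-median ones, by 0.84 to 1.15 log2 units for high-Myc against low-Myc, and they rest on the ERCC curve.

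MYC itself measured 9844 and 9567 at low-Myc, 10289 and 10439 at mid-Myc and 12155 and 12433 at high-Myc on the equal-median scale. Its high-Myc minus low-Myc difference was 0.34 log2 units there (adjusted p = 2.68e-07) and 0.96 per cell (adjusted p = 4.16e-10). At mid-Myc it was 0.095 above low-Myc (adjusted p = 0.0339), a sign that turned under 4 other scalings and a call lost in 3 of the fits that left out an array, and 0.13 above it per cell (adjusted p = 0.00282). Of those scalings, cyclic loess (-0.16, adjusted p = 0.00337) and quantile normalization (-0.15, adjusted p = 0.00596) called MYC lower at mid-Myc. The order of the labels thus held for MYC at 24 h on both scales, while its sign at 1 h on the equal-median scale depended on the scaling. Of 23 background probe sets, the brightest stood at 694 and the second brightest at 194. Values under 194 are called inside the background range below. A value between 194 and 694 is not thereby shown to be free of background. B-cell markers were bright, with 8 of the 9 that had a probe set above 194. Their summed equal-median intensity was 27128 and 26818 at low-Myc, 31312 and 31258 at mid-Myc and 18198 and 18325 at high-Myc. None of 9 T and NK cell markers passed that level, and their sum lay between 366 and 456 on every array. Of 6 monocyte markers, LYZ and MS4A7 passed it and CD14, CD163, CSF1R and CD68 did not, and the sum was 2572 and 2499 at low-Myc, 2699 and 2696 at mid-Myc and 1019 and 991 at high-Myc. Plasma cell markers, of which 2 of 4 passed, summed to between 704 and 801. No marker had a mean of 0, and the part of these shifts in the results below was not tested.

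RefSeq promoter windows (GRCh38.p14, from 250 bases before to 50 after a gene's start) were found for 39 of the 44 genes. They were searched for CACGTG, the canonical E-box, which reads the same on both strands. It was present in 1 of the 39 genes, SF3B1, or 2.6%. Counted by window, it was in 2 of their 46 windows, or 4.3%, both of them windows of SF3B1, and in 2548 of 35116 windows of the whole table, or 7.3%. SF3B1, the branch-point-binding subunit of SF3B, was also the one gene of the 44 called lower at 24 h on the equal-median scale, and per cell it was higher. Its window is shown with the motif in capitals, beside those of GEMIN5 and SNRPF, which had the largest differences at 24 h on the equal-median scale and hold no such motif. All are written 5′ to 3′ along the gene's strand.
SF3B1, chr2:197434979-197435278, minus strand: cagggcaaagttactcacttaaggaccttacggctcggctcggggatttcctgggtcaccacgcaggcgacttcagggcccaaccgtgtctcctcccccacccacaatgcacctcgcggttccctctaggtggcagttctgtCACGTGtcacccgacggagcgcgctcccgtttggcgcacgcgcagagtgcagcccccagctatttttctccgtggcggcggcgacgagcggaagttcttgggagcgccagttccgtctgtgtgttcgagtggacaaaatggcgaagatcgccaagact
GEMIN5, chr5:154938162-154938461, minus strand: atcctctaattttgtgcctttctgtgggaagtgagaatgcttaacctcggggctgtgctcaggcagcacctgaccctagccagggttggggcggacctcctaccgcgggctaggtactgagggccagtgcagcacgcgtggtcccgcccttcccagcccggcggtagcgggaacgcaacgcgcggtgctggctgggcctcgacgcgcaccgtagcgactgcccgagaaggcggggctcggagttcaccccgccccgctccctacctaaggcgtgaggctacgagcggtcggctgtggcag
SNRPF, chr12:95858702-95859001, plus strand: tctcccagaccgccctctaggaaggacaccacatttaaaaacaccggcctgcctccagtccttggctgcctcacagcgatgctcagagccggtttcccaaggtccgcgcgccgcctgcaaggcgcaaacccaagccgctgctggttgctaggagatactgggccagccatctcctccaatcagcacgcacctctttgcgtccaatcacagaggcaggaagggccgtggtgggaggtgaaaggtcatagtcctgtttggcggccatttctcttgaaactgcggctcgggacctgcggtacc
The SF3B1 motif began 108 bases before the start of this window's transcript, and 43 bases before a second annotated start. The 38 genes with a window and no motif had high-Myc minus low-Myc differences from 0.005 to 2.85 on the equal-median scale. These windows were rich in G and C, with a median of 60.7% (47.0% to 75.7%) for the 39 genes and 58.7% for the whole table. A match or its absence describes these letters in this window only.

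At 24 h of release, the snRNP and partner genes stood mostly above their low-Myc level. On the equal-median scale 39 rose, 1 fell and 4 did not pass the test, with a median difference of 0.88 log2 units, or 1.84-fold. Over all tested genes 37.7% were called higher and 26% lower, with a median difference of 0.05. A rise of at least 2-fold was called for 20 of the 44, against 11.1% of all tested genes. Both high-Myc arrays lay above both low-Myc arrays for 42 of them, against 45% of all genes, and below them for SF3B1. Per cell, all 44 rose and 42 did so by at least 2-fold, with a median of 1.86 log2 units or 3.64-fold. On that scale 90.8% of all tested genes were called higher, 48.4% by at least 2-fold, and 2.53% lower, and the median of all genes was 0.97. The high-Myc arrays lay above the low-Myc ones per cell for all 44 genes, against 93.5% of all genes.

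**Figure D1:**
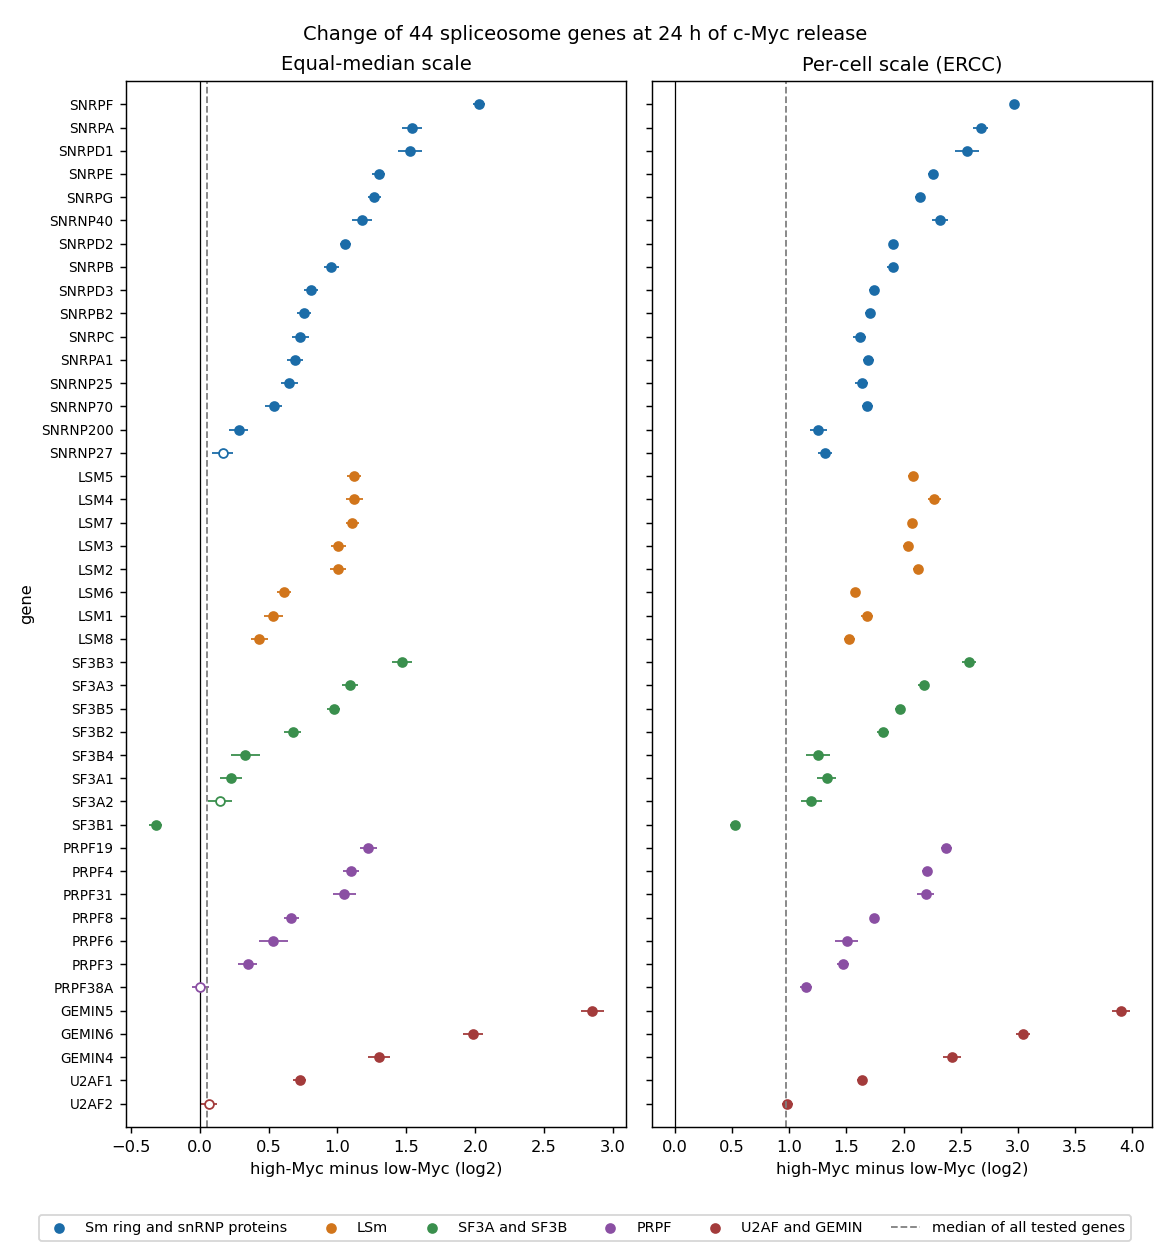
High-Myc minus low-Myc difference of each of the 44 genes, in log2 units on the equal-median scale (left) and the per-cell scale (right), ordered within 5 groups shown by colour. Bars are the SE of the fit, open circles did not pass the test, and the dashed line is the median of all tested genes, 0.05 on the left and 0.97 on the right.

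The centring moved the whole distribution. Centred on the tested genes instead, all genes had a median of -0.15 and 3500 higher against 4931 lower calls, in place of 4598 against 3172. The median of the 44 genes stood 0.83 above that of all genes under both centrings, 0.64 above it after quantile normalization and 0.89 above it per cell. The higher calls among the 44 numbered 36 after quantile normalization, and U2AF2 and PRPF38A then joined SF3B1 among the lower ones. The 44 probe sets were bright, with mean intensities from 83.1 for SF3B4 to 3368 for SF3B1 and a median of 833, the 87.2 percentile of tested genes. For genes of 1000 to 3000 intensity, the median difference was 0.88 over the 18 spliceosome genes and 0.05 over all 962. In the band from 100 to 300, these were 1.30 over 7 and 0.16 over 3605. Higher calls at 24 h also ran with brightness, from 18.2% of all genes under 100 to 59.1% of those over 3000. Spliceosome genes were called higher in 6 of 7 cases from 100 to 300, against 47.3% of all genes there. The counts were 14 of 16 against 49.6% from 300 to 1000, 17 of 18 against 46.9% from 1000 to 3000, and 1 of 2 over 3000.

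All 7 Sm ring genes rose on both scales, against 37.7% and 90.8% of all genes, with a median of 1.27 on the equal-median scale and 2.14 per cell. SNRPF, the Sm F protein, measured 1136 and 1164 at low-Myc, 1372 and 1418 at mid-Myc and 4741 and 4642 at high-Myc. Its high-Myc arrays were far above the other 4, with a difference from low-Myc of 2.03 ± 0.04 (SE, adjusted p = 6.41e-13), or 4.08-fold, and of 7.83-fold per cell. SNRPD1, a partner of SNRPD2 in the ring, read 777 and 798 at low-Myc, 1047 and 824 at mid-Myc and 2386 and 2163 at high-Myc. It differed by 1.53 ± 0.09 between high-Myc and low-Myc (SE, adjusted p = 2.51e-09), and its mid-Myc arrays were the widest apart of any Sm gene. Dimmer SNRPD1 probe sets, at 486 and 461 intensity, differed by 1.94 and 1.97. The distance between SNRPD1 and SNRPF thus depended on the probe set.

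SNRPE, which sits beside SNRPF and SNRPG, had 3069 and 2878 at high-Myc and 1181 and 1237 at low-Myc, a difference of 1.30. SNRPG had 4528 and 4773 at high-Myc and 1996 and 1870.2 at low-Myc, a difference of 1.27. SNRPE, SNRPF and SNRPG encode proteins that enter the ring together, and the value of SNRPF was the highest of these. SNRPD2 differed by 1.06, SNRPB, which encodes the B and B′ proteins, by 0.96, and SNRPD3, the partner of SNRPB, by 0.81. The groups did not overlap for any Sm gene. Differences between members were not tested.

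Proteins that mark single snRNPs rose less evenly. SNRPA, the U1 protein that binds a stem loop of U1 RNA, measured 209.5 and 195.0 at low-Myc, 257 and 238 at mid-Myc and 581 and 595 at high-Myc. Its high-Myc minus low-Myc difference was 1.54 ± 0.07 (SE, adjusted p = 2.55e-10). The other U1 proteins rose less, SNRPC, which contacts the 5′ splice site, by 0.73 and SNRNP70, which holds the ring to U1 RNA, by 0.54. The U2 proteins SNRPA1 and SNRPB2 form a pair on U2 RNA and rose by close amounts, 0.69 and 0.75. Dimmer SNRPA1 probe sets differed by 1.18 and 0.22, and other SNRPB2 probe sets by 0.70 to 0.88. The closeness of the pair thus depended on the probe set.

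Among U5 proteins, SNRNP40 had 532 and 585 at high-Myc against 242 and 252 at low-Myc, a difference of 1.18 (adjusted p = 6.07e-09). SNRNP200, the helicase that unwinds U4 from U6, measured 1672 and 1783 at high-Myc against 1329 and 1514 at low-Myc. That difference, 0.28 ± 0.07 (SE, adjusted p = 0.00288), did not pass the test under 4 other scalings or without low-Myc replicate 1, where it was 0.19 (adjusted p = 0.0589). SNRNP25, of the U11/U12 snRNP of minor introns, rose by 0.65. SNRNP27, a tri-snRNP protein, had 450.1 and 412 at high-Myc and 406 and 363 at low-Myc, and its difference of 0.17 did not pass (adjusted p = 0.0680), with a sign that turned under 2 other scalings and a call as higher without low-Myc replicate 1 (adjusted p = 0.0261), without high-Myc replicate 2 (adjusted p = 0.0392) and with a stricter filter on dim genes (adjusted p = 0.0484). Per cell it was 1.31.

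All 8 LSm genes rose at 24 h on both scales, against 37.7% and 90.8% of all genes. Their median was 1.00 on the equal-median scale and 2.05 per cell. LSM5, one of the subunits shared by the nuclear and cytoplasmic rings, measured 1331 and 1267 at low-Myc, 1419.5 and 1538 at mid-Myc and 2824 and 2833 at high-Myc. It differed by 1.12 ± 0.05 between high-Myc and low-Myc (SE, adjusted p = 2.59e-10). The shared subunits LSM4, LSM7, LSM3 and LSM2 lay close to it at 1.12, 1.11, 1.01 and 1.00, and LSM6 was lower at 0.61. A second LSM6 probe set of like brightness differed by 0.96, and other LSM3 probe sets by 0.67 to 0.98. The distance of LSM6 from the rest thus depended on the probe set.

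The 2 subunits that set the rings apart had the smallest differences of the 8 on the equal-median scale. LSM8, found in the nuclear ring on U6, had 945 and 989.9 at high-Myc and 752 and 682 at low-Myc, a difference of 0.43 ± 0.06 (SE, adjusted p = 2.22e-05). LSM1, found in the cytoplasmic ring, had 433 and 406 at high-Myc and 298 and 281 at low-Myc, a difference of 0.54 ± 0.07 (SE, adjusted p = 7.83e-06). The groups did not overlap for either gene. Per cell LSM8 differed by 1.53, LSM6 by 1.57 and LSM1 by 1.68.

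SF3A and SF3B, which hold the U2 snRNP at the branch point, were the most divided set. On the equal-median scale 6 of 8 genes were higher and 1 lower, against 37.7% and 26% of all genes, with a median of 0.50. SF3B3, a large propeller protein of SF3B, measured 177 and 158 at low-Myc, 179.7 and 179 at mid-Myc and 462 and 462 at high-Myc. Its difference at 24 h was 1.47 ± 0.07 (SE, adjusted p = 6.42e-10), with low-Myc and mid-Myc values inside the background range. SF3A3 measured 693 and 650.3 at low-Myc, 651 and 669 at mid-Myc and 1382 and 1484 at high-Myc, so that its difference of 1.09 lay between 1 h and 24 h.

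SF3B5, a small subunit, rose by 0.97 and SF3B2, which contacts RNA near the branch point, by 0.68. SF3B4, also an RNA-binding subunit, had 98.7 and 91.9 at high-Myc and 73.4 and 78.0 at low-Myc, a difference of 0.33 (adjusted p = 0.0118). SF3A1, which links the complex to U2, had 846 and 847 at high-Myc and 702 and 747 at low-Myc, a difference of 0.23 (adjusted p = 0.0247). Both calls were lost without low-Myc replicate 1, at 0.29 (adjusted p = 0.0783) for SF3B4 and 0.18 (adjusted p = 0.163) for SF3A1, and without high-Myc replicate 1, at 0.28 (adjusted p = 0.0708) and 0.23 (adjusted p = 0.0583). SF3A1 also lost it without high-Myc replicate 2 (adjusted p = 0.0596), without a variance trend (adjusted p = 0.0978) and under 4 other scalings (0.012 to 0.090), and SF3B4 under 3 other scalings (0.13 to 0.25). SF3A2 differed by 0.15 and did not pass (adjusted p = 0.149).

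SF3B1, the subunit that grips the branch point helix, went the other way. It measured 3441 and 3429 at low-Myc, 3837 and 4252 at mid-Myc and 2789.6 and 2718 at high-Myc. High-Myc arrays were the lowest of the 6, and the difference from low-Myc was -0.32 ± 0.05 (SE, adjusted p = 4.69e-05). Per cell SF3B1 measured 4030.0 and 3895 at high-Myc against 2738 and 2767 at low-Myc, 0.53 higher (adjusted p = 7.58e-07), which was less than the median of all genes, 0.97. Its 2 other probe sets had differences of -0.14 and -0.10 on the equal-median scale and 1.00 and 0.85 per cell.

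**Figure D2:**
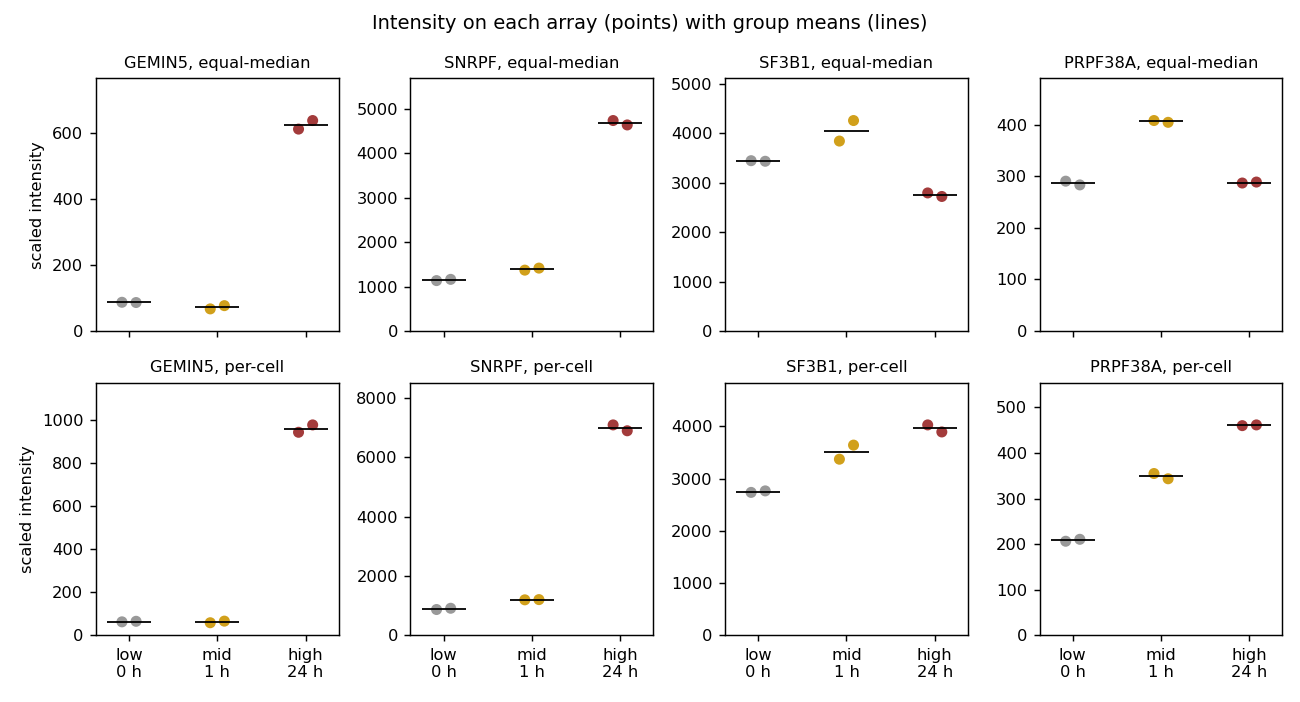
Scaled intensity of GEMIN5, SNRPF, SF3B1 and PRPF38A on each of the 6 arrays (points) with group means (lines), on the equal-median scale (top) and the per-cell scale (bottom), each axis from 0. GEMIN5 and SNRPF stand high at 24 h on both scales, while SF3B1 falls and PRPF38A returns to its 0 h value on the equal-median scale only.

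Of the 7 PRPF genes, 6 rose at 24 h on the equal-median scale, against 37.7% of all genes. The median was 0.66, or 1.75 per cell. PRPF19, the ubiquitin ligase at the centre of the complex that activates the spliceosome, had 751 and 747 at high-Myc and 329.5 and 312 at low-Myc, a difference of 1.22 ± 0.06 (SE, adjusted p = 6.44e-10). PRPF4 and PRPF31, proteins of the U4/U6 snRNP, rose by 1.10 and 1.05. PRPF3, the partner of PRPF4 in that particle, had 310.1 and 304 at high-Myc and 242 and 240.0 at low-Myc, a difference of 0.35 (adjusted p = 3.51e-04).

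PRPF8, the scaffold of the catalytic centre, had 1075 and 1066 at high-Myc and 694 and 658 at low-Myc, a difference of 0.66. PRPF6, which bridges U5 and U4/U6, had 128 and 135 at high-Myc and 98.2 and 83.9 at low-Myc, a difference of 0.53 within the background range. PRPF38A, which joins at the activation step, measured 291 and 283 at low-Myc, 408 and 405 at mid-Myc and 287 and 289 at high-Myc. High-Myc and low-Myc overlapped, with a difference of 0.005 (adjusted p = 0.954) that became negative under 5 other settings and without low-Myc replicate 2 (-0.013). A second PRPF38A probe set of like brightness differed by 0.58, so its probe sets disagreed, and with all of them averaged PRPF38A was called higher, at 0.29 (adjusted p = 6.79e-04). Per cell the PRPF38A difference was 1.14.

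The largest difference belonged to an SMN complex gene. GEMIN5, which recognises small nuclear RNAs and delivers them to the SMN complex, measured 86.9 and 86.2 at low-Myc, 66.9 and 76.7 at mid-Myc and 610.4 and 636 at high-Myc. Its high-Myc minus low-Myc difference was 2.85 ± 0.08 (SE, adjusted p = 5.66e-12), or 7.20-fold, and 14.9-fold per cell. Low-Myc and mid-Myc values were below 194, the second brightest background probe set, so they may hold background signal. The brightest, at 694, stood above the high-Myc values too. A dimmer GEMIN5 probe set differed by 1.28.

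GEMIN6, whose fold resembles an Sm protein, measured 114 and 112 at low-Myc, 99.7 and 97.7 at mid-Myc and 444 and 448 at high-Myc, with a difference of 1.98 ± 0.07 (SE, adjusted p = 3.40e-11), also from values inside the background range. GEMIN4 measured 440.5 and 485 at high-Myc and 182 and 192 at low-Myc, a difference of 1.30 (adjusted p = 4.97e-09). Its low-Myc values were thus also inside the background range on this scale, though their mean as deposited was 200. Both U2AF subunits, which read the 3′ splice site, had high-Myc arrays above low-Myc ones, but U2AF1 passed the test, at 0.72 (adjusted p = 7.73e-09), and U2AF2 did not, at 0.069 (adjusted p = 0.304). U2AF2 measured 2425 and 2282 at high-Myc and 2259 and 2227 at low-Myc, and its sign turned under 4 other scalings, 2 of which called it lower, while averaging its probe sets called it higher (adjusted p = 0.0371). Per cell U2AF2 differed by 0.98.

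One hour after release the changes were small. On the equal-median scale 29 of the 44 genes were called higher in mid-Myc than in low-Myc cells, 1 was called lower and 14 did not pass, with a median of 0.24. Of all tested genes 25.7% were called higher and 3.39% lower, with a median of 0.09. Mid-Myc arrays lay above low-Myc ones for 36 of the 44, against 47.9% of all genes. Per cell 41 were called higher, against 62.4% of all genes, with medians of 0.43 and 0.30. Limma called 0 of them lower per cell, as at an unadjusted p under 0.05, against 0.697% of all genes. The mid-Myc arrays lay above per cell for 42, against 77.5%, and 0 of the 44 reached a called 2-fold rise on either scale, against 0.377% and 0.861% of all genes.

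These counts depended on the scaling. The 29 higher and 1 lower became 8 and 4 after quantile normalization, 9 and 4 after cyclic loess, 12 and 4 as deposited and 13 and 2 when centred on the tested genes. Over all genes, 3139 higher against 414 lower became 955 against 1195 after quantile normalization. The median of the 44 genes above that of all genes was 0.15 on the equal-median scale, 0.13 per cell and 0.08 after quantile normalization. Calls also ran with brightness: at 1 h, 4.87% of tested genes under 100 intensity were called higher, and 62.5% of those from 1000 to 3000. In that brighter band 15 of 18 spliceosome genes were called, with a median of 0.26 against 0.20 for all genes there.

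**Figure D3:**
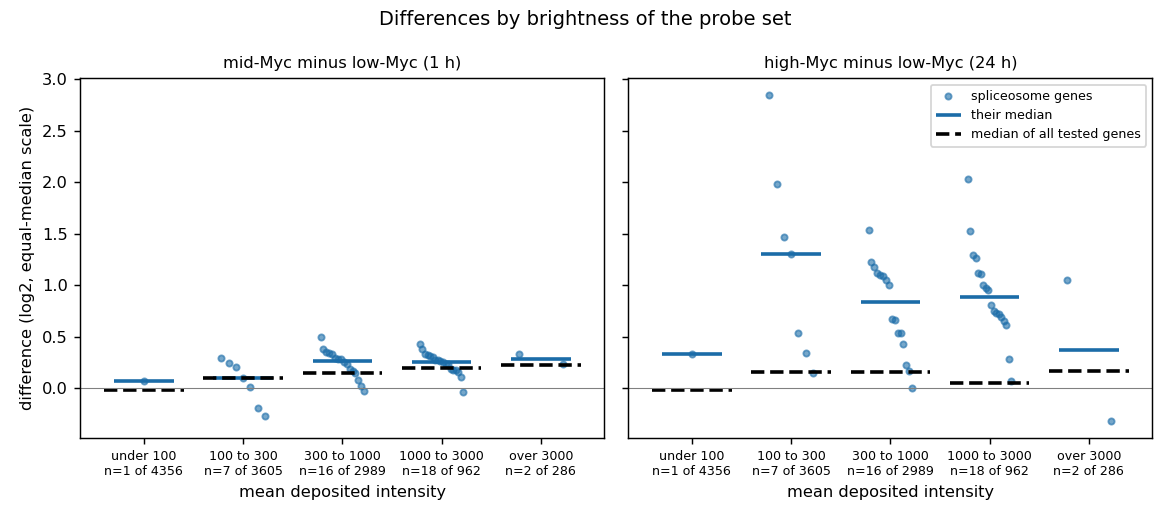
Differences (log2, equal-median scale) of the 44 genes (points) by mean deposited intensity, for mid-Myc minus low-Myc (left) and high-Myc minus low-Myc (right). Solid lines are their median in each band and dashed lines the median of all tested genes: from 1000 to 3000 intensity these were 0.26 and 0.20 at 1 h, and 0.88 and 0.05 at 24 h.

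The 6 highest at 1 h were PRPF38A at 0.50 ± 0.06 (SE, adjusted p = 9.32e-05), SNRPG at 0.43, LSM3 at 0.39, PRPF8 at 0.38, PRPF4 at 0.36 and SF3B2 at 0.35. SNRPG had 2626 and 2596 at mid-Myc and 1996 and 1870.2 at low-Myc, and PRPF8 had 877 and 879 at mid-Myc and 694 and 658 at low-Myc. The groups did not overlap for these 6 genes. With all probe sets averaged, SNRPG lost its call, at 0.057 (adjusted p = 0.505). That average takes in a dim probe set, at 53.2 intensity, with a difference of -0.32. PRPF genes were called higher in 5 of 7 cases, LSm genes in 7 of 8, snRNP proteins in 13 of 16 and SF3 genes in 2 of 8, with medians of 0.34, 0.26, 0.26 and 0.09, beside 25.7% of all genes. Differences between these sets were not tested. Per cell all 7, 8, 16 and 8 genes were called higher, against 62.4% of all genes. That share was 90.5% for all genes from 300 to 1000 intensity and 94.6% for those from 1000 to 3000.

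At the other end were SF3A1 at 0.026, SF3A2 at 0.012, SF3A3 at -0.025 and U2AF2 at -0.034, none of which passed. As deposited, with cyclic loess and with quantile normalization, U2AF2 was called lower, at -0.25 to -0.18 (adjusted p = 0.00705 to 0.0290), and so was SF3A3, at -0.20 to -0.17 (adjusted p = 0.0149 to 0.0319). With all probe sets averaged, SF3A1 was called higher, at 0.17 (adjusted p = 0.0270). The 3 SF3A genes thus had overlapping mid-Myc and low-Myc arrays. GEMIN6 had both mid-Myc arrays below both low-Myc arrays, a difference of -0.19 (adjusted p = 0.0626). It was called lower under 4 other scalings, at -0.34 to -0.29 (adjusted p = 0.00663 to 0.0142). In the fit that averaged the probe sets of each gene it was also called lower (adjusted p = 0.0239). GEMIN6 had no further probe set to average, and its difference there was the same, -0.19. GEMIN5 was called lower, at -0.27 ± 0.08 (SE, adjusted p = 0.0270), but from values inside the background range. That call was lost without low-Myc replicate 1 or 2 or mid-Myc replicate 1, without a variance trend and with only these groups in the fit, and per cell the difference was -0.041 (adjusted p = 0.676).

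Between 1 h and 24 h, 37 of the 44 genes were called higher in high-Myc than in mid-Myc cells and 2 lower on the equal-median scale, with a median of 0.62, against 33.3% and 30.9% of all tested genes and a median of 0.02. A rise of at least 2-fold was called for 9, against 9.05% of all genes. Per cell all 44 rose, 37 of them by at least 2-fold, against 81.7% and 32.7% of all genes, with 6.57% of all genes lower. There the medians were 1.43 and 0.72. The highest were GEMIN5 at 3.12 ± 0.08 (SE, adjusted p = 2.75e-12), GEMIN6 at 2.17, SNRPF at 1.75, SF3B3 at 1.36, SNRPD1 at 1.29 and SNRPA at 1.25.

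The lower ones were SF3B1 at -0.55 ± 0.05 (SE, adjusted p = 1.90e-07) and PRPF38A at -0.50 ± 0.06 (SE, adjusted p = 9.12e-06), for both of which all mid-Myc arrays lay above all high-Myc arrays. The second PRPF38A probe set had the opposite sign, 0.43, and with all its probe sets averaged the call was lost, at -0.031 (adjusted p = 0.647). Per cell both genes rose, by 0.18 (adjusted p = 0.00263) for SF3B1 and 0.40 (adjusted p = 5.19e-05) for PRPF38A. SNRNP200 at -0.048, SNRNP27 at 0.020, U2AF2 at 0.10 and SF3A2 at 0.14 did not pass. SNRNP200 was called lower with all its probe sets averaged, at -0.15 (adjusted p = 0.0141), and U2AF2 was called higher with cyclic loess, at 0.17 (adjusted p = 0.0133), and without mid-Myc replicate 2 (adjusted p = 0.0143). High-Myc against low-Myc and high-Myc against mid-Myc share the high-Myc arrays, so the same extremes in both are not separate evidence.

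**Figure D4:**
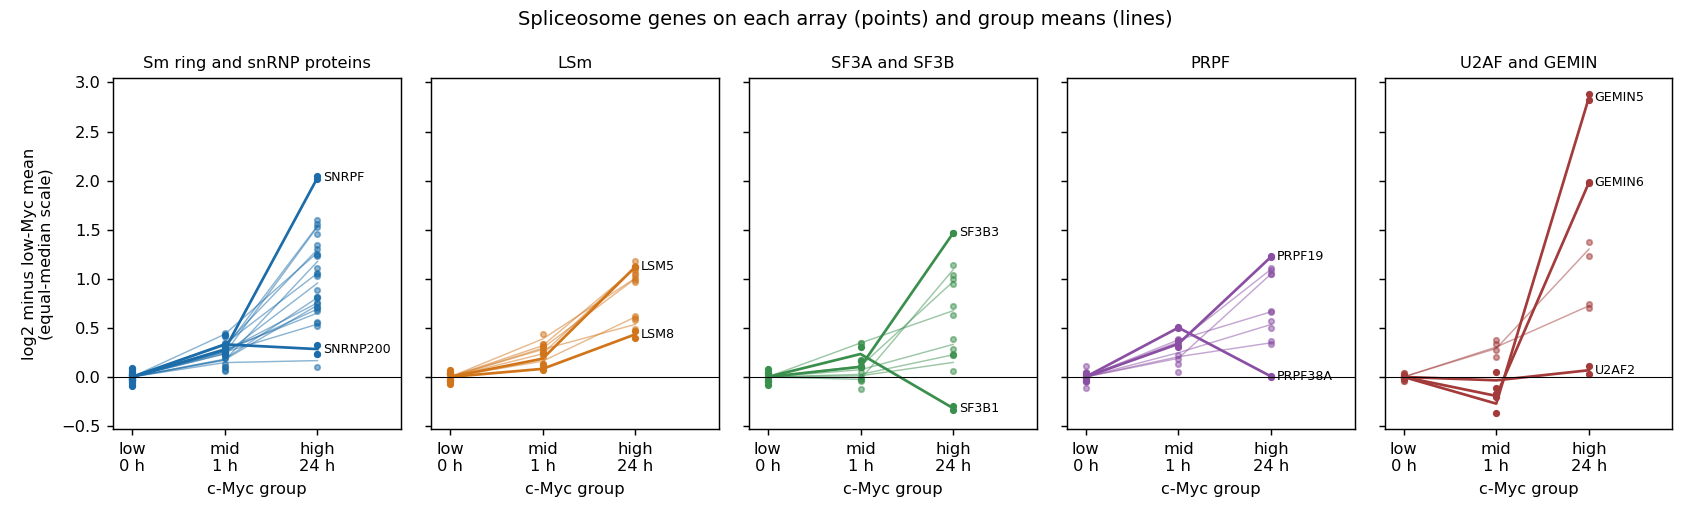
Log2 intensity of each of the 44 genes on the equal-median scale, minus its low-Myc mean, on each array (points) and as group means (lines), in 5 groups at 0, 1 and 24 h. GEMIN5 and GEMIN6 lie below 0 at 1 h and at 2.85 and 1.98 at 24 h, and SF3B1 ends at -0.32.

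Median log2 intensities by array gave the same order of groups. The 16 snRNP proteins had 10.25 and 10.26 at low-Myc, 10.56 and 10.56 at mid-Myc and 11.27 and 11.14 at high-Myc on the equal-median scale. The 8 LSm genes had 9.65 and 9.55 at low-Myc, 9.82 and 9.86 at mid-Myc and 10.36 and 10.32 at high-Myc. The 8 SF3 genes had 9.07 and 8.98 at low-Myc, 9.17 and 9.19 at mid-Myc and 9.51 and 9.55 at high-Myc, the narrowest span of these sets, and the 7 PRPF genes had 8.18 and 8.15 at low-Myc, 8.63 and 8.66 at mid-Myc and 9.14 and 9.15 at high-Myc.

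Of 103 other splicing and snRNP assembly genes, 97 were tested, and this list too was chosen with earlier results known. At 24 h 64 of them rose, 9 fell and 24 did not pass on the equal-median scale, with a median of 0.41, against 37.7% and 26% of all tested genes. Per cell all 97 rose, with a median of 1.51, against 90.8% of all genes. The highest was PRMT5, the methyltransferase that modifies Sm proteins before ring assembly, at 127.0 and 126 at low-Myc, 148 and 145 at mid-Myc and 633 and 642 at high-Myc. Its difference from low-Myc was 2.33 ± 0.07 (SE, adjusted p = 5.31e-12), with low-Myc and mid-Myc values below 194, inside the background range. Next were PPIH, a cyclophilin of the tri-snRNP, at 1.64, PPIL1, another spliceosomal cyclophilin, at 1.56, EIF4A3, the exon junction helicase, at 1.55, DDX20, the helicase of the SMN complex, at 1.42 and SF3B6, a small subunit of SF3B, at 1.21.

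The lowest were XRN1, a 5′ to 3′ exonuclease of messenger RNA decay, at -0.72, SYF2, a protein associated with the PRP19 complex, at -0.65, SLU7, a factor of the second splicing step, at -0.50, PRPF38B, a relative of PRPF38A, at -0.46, GEMIN7 at -0.38 and CDC40, also a second-step factor, at -0.25. GEMIN7, the partner of GEMIN6, had 355 and 381 at high-Myc and 493 and 464 at low-Myc (adjusted p = 1.42e-04), so the pair moved in opposite directions on the equal-median scale. Its call was lost when all its probe sets were averaged, at -0.15 (adjusted p = 0.121), and per cell it was 0.77 higher at high-Myc. PRPF38B had the opposite sign when all its probe sets were averaged, 0.20.

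At 1 h 41 of the 97 were called higher, 3 lower and 53 neither on the equal-median scale, with a median of 0.15, against 25.7% and 3.39% of all tested genes. Per cell 85 were called higher, against 62.4%. The highest were MEPCE, the capping enzyme of 7SK RNA, at 0.68, WBP11 at 0.57, SMN1 at 0.52 and EIF4A3 at 0.47. SMN1 measured 71.7 and 81.5 at mid-Myc and 50.6 and 56.4 at low-Myc, below the background level of 194, and cannot be separated from its near-identical copy SMN2. The probe set listed for SMN2, looked up after the SMN1 value was seen, had 208 and 241 at mid-Myc and 183 and 203 at low-Myc, a difference of 0.21 (adjusted p = 0.182). The lowest were GEMIN2, a core partner of SMN, at -0.37 (adjusted p = 0.00357), WBP4 at -0.28 (adjusted p = 0.0129), XAB2 at -0.27 (adjusted p = 0.168) and SART3, which recycles U6, at -0.18 (adjusted p = 0.0442). GEMIN2 kept its call on the equal-median scale under every alternative run. The SART3 call was lost in 5 of the fits that left out an array, without the filter, without a variance trend, with only these groups in the fit, with the replicate block (adjusted p = 0.0513) and with all probe sets averaged, where it was -0.032. WBP4 lost its call without any one low-Myc or mid-Myc array (adjusted p = 0.0515 to 0.0695). SMN1 lost it without low-Myc replicate 1 (0.44, adjusted p = 0.0828), without mid-Myc replicate 2 (0.43, adjusted p = 0.0973), as deposited (0.37, adjusted p = 0.0811) and centred on the tested genes (0.40, adjusted p = 0.0686).

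From 1 h to 24 h 53 of the 97 rose and 23 fell on the equal-median scale, against 33.3% and 30.9% of all tested genes, and per cell 95 rose, against 81.7%.

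Further probe sets above the filter existed for 32 of the 44 genes. At 24 h against 0 h they pointed the same way as the chosen probe set in 28 genes on the equal-median scale, and in all 32 per cell. The exceptions were SNRNP200, SNRNP27, SNRPB and SNRPG. For SNRPB the disagreeing probe set was dim, at 37.2 intensity, while 6 brighter ones differed by 1.10 to 1.53. The further SNRPG probe set was also dim, at 53.2 intensity, and differed by -0.65. The other SNRPF probe sets above the filter differed by 1.86 to 1.97. Several Sm and LSm genes have processed copies in the genome that a probe set may also detect, and 20 of the 44 genes were read by a probe set of a class that can match more than one transcript family.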

How the data were processed

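Per the labels, RNA of P493-6 cells was labelled with biotin and measured on 1-colour arrays, with ERCC RNA added by cell number. The deposited values are linear probe set intensities that the authors made with MAS5, per the submitters' processing notes; its version and scaling target are not stated. No detection calls were used, and dim intensities include background. From the deposited intensities, log2 values were computed on 2 scales: with the human median of each array set to 0 (equal-median), or minus a robust loess curve (span 0.7, degree 1) through 100 ERCC probe sets (per-cell). Genes were named through GEO's platform annotation with symbols updated, from probe sets with 1 symbol; those with several (1333) or none (2682) were not used. A gene was tested if its brightest probe set averaged above the 40th percentile of human probe sets (33.8 intensity). The test was limma 3.58.1 in R 4.3.3, 1 fit over 6 arrays with a variance trend, two-sided, Benjamini-Hochberg over 12198 genes, threshold 0.05. With 2 arrays a group, p-values measure the spread between these duplicates (replicate correlation 0.996 in each group), and an exact permutation test cannot go below p = 0.333. The members, the other splicing genes and the rules were chosen with earlier results of these data known. Any of the 44 genes may be named for high-Myc against low-Myc. For the other comparisons fitted values are given for the 6 highest and 6 lowest, and from the other splicing genes for the 6 and 6 (24 h) or 4 and 4 (1 h) highest and lowest. Further probe sets of a gene were looked at after its fit. Alternatives changed the filter, probe set, pseudocount, variance model, scaling, ERCC curve, samples in the fit and replicate block, and left out each array. Same-numbered arrays did not deviate together (correlations 0.002, -0.003 and -0.002), so the numbers were not taken as pairs. Promoter windows are RefSeq's. Protein sequences were not used here. Figures were drawn with matplotlib 3.10.9.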

Additional observations from a re-analysis of the deposited data

How the results depend on the processing

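At 24 h, the count of spliceosome genes called higher than at low-Myc stayed between 36 and 41 on the equal-median scale and between 39 and 44 per cell under every alternative run, the lowest per-cell count being that of a filter that tested fewer genes. Leaving out each array in turn gave 37 to 39 (equal-median) and 44 to 44 (per cell) for high-Myc against low-Myc, 34 to 38 and 44 to 44 for high-Myc against mid-Myc, and 19 to 30 and 38 to 41 for mid-Myc against low-Myc. For the other splicing genes these ranges were 59 to 65 and 97 to 97, 48 to 52 and 94 to 95, and 21 to 38 and 80 to 85. The lowest counts at 1 h came without low-Myc replicate 2 (19) and without mid-Myc replicate 2 (21).

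The 1 h counts on the equal-median scale were the ones that moved. The 29 spliceosome genes became 12 as deposited, 13 centred on the tested genes, 9 with cyclic loess, 8 with quantile normalization and 17 with no variance trend, and the 41 other splicing genes became 13, 15, 12, 12 and 27. The cause was not tested. With the replicate block the spliceosome counts were 39, 37 and 30 (high-Myc against low-Myc, high-Myc against mid-Myc, mid-Myc against low-Myc) on the equal-median scale and 44, 44 and 41 per cell, and those of the other splicing genes 65, 53 and 39, and 97, 95 and 85, so no count moved by over 1.5 times.

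Signs turned for small differences. In the order as deposited, centred on the tested genes, cyclic loess and quantile normalization, MYC at 1 h was -0.055, -0.020, -0.16 and -0.15, PRPF38A at 24 h -0.13, -0.20, -0.11 and -0.19, U2AF2 at 24 h -0.071, -0.14, -0.072 and -0.23, SF3A1 at 1 h -0.12, -0.089, -0.14 and -0.15, and SF3A2 at 1 h -0.14, -0.10, -0.083 and -0.097. With log2(value + 16), PRPF38A at 24 h was -0.023, SF3A1 at 1 h -0.0094 and SF3A2 at 1 h -0.013. Centred on the tested genes and with quantile normalization, SF3A2 at 24 h was -0.055 and -0.0029, SNRNP27 at 24 h -0.037 and -0.040, and SNRNP27 at high-Myc against mid-Myc -0.068 and -0.024. With all probe sets averaged, SNRNP27 at high-Myc against mid-Myc was -0.11, SF3A3 at 1 h 0.051, U2AF2 at 1 h 0.043, PRPF38B at 24 h 0.20 and WBP4 at 1 h per cell 0.020. With cyclic loess, SNRNP200 at high-Myc against mid-Myc was 0.0068.

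Leaving out each array gave GEMIN5 at 1 h per cell -0.12 to 0.047, PRPF38A at 24 h -0.013 to 0.023, SF3A1 at 1 h -0.12 to 0.17, SF3A2 -0.029 to 0.052, SF3A3 -0.071 to 0.021, U2AF2 -0.12 to 0.047, XAB2 per cell -0.25 to 0.10, and at high-Myc against mid-Myc SNRNP200 -0.14 to 0.043 and SNRNP27 -0.043 to 0.083. The number of arrays limits the precision. As deposited, 6 of the 44 genes had a group mean below the second brightest background probe set (GEMIN5, SF3B4, GEMIN6, PRPF6, SF3A2 and SF3B3).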
